A study of Mus musculus with 14 samples.

Results

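The genes described here encode the machinery that brings secretory proteins into the endoplasmic reticulum (ER) and carries them to and from the Golgi apparatus. They are a list of 58 gene symbols among the 37310 Ensembl identifiers of 3 deposited tables of gene counts, and each symbol matched 1 identifier. The list was chosen by function, but with earlier results of these data known. Its share of calls is therefore described and not tested as a set. RNA sequencing was done on mouse pancreatic β-cells and on whole islets of Langerhans. The β-cells were wild type, of postnatal day 45 (adult, n = 3 libraries) and of postnatal day 6 (neonatal, n = 3). Whole islets came from mice 8 weeks old labelled TSC1 KO (n = 2) and their controls labelled RC control (n = 2), and from mice 4 weeks old labelled Db (n = 2) and their controls labelled BKS control (n = 2). Tsc1 encodes a subunit of the complex that restrains the growth kinase complex mTORC1. The study's design names the knockout as one of β-cells, but the sources used here do not name the promoter that drove it. Db is the usual name of a mutation of the leptin receptor gene Lepr, but the labels give no allele. All 14 libraries carry C57BL/6 as their strain, and the prefixes RC and BKS are not explained in the labels. Whether the libraries of a group came from separate animals is not stated either, so a p-value here reflects how much these samples vary, and that variation may be technical.

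Proteins destined for secretion carry a signal sequence that the signal recognition particle (SRP) binds as the chain leaves the ribosome. The Sec61 channel, with the translocon-associated protein (TRAP) complex beside it, passes the chain into the ER, where signal peptidase removes the signal and the oligosaccharyltransferase attaches sugar chains. Folded cargo leaves in vesicles coated with COPII, and vesicles coated with COPI bring escaped ER proteins and cargo receptors back from the Golgi. In β-cells proinsulin is the main cargo of this route.

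Gene counts per library ranged from 3507929 to 17688772, and CPM below is a gene's count scaled to a common library total after TMM scaling, within 1 table. The markers of β-cells fixed for a check of the labels, 10 genes, summed to between 55080 and 90900 CPM in adult and between 24400 and 33550 CPM in neonatal β-cells. They summed to between 12860 and 13360 CPM in TSC1 KO islets, against between 235000 and 265500 CPM in their controls. The sums were between 427700 and 494600 CPM in Db islets, against between 599900 and 920500 CPM in theirs. In Db islets 7 of the 10 were lower and 1 higher, and in adult β-cells 5 were higher and none lower. In TSC1 KO islets 9 of the 10 were lower. There the 4 tested stomach mucosa markers were higher, with sums of 190.4 to 319.7 CPM against 10.89 to 19.75 CPM in controls. Gkn1, Gkn2, Tff1 and Muc5ac of that list were at 0. Markers of other endocrine cells summed to between 3033 and 7588 CPM in TSC1 KO islets, against between 27110 and 32990 CPM in controls, with 5 of 9 tested lower and 1 higher. Duct markers (2 of 8 higher) summed to between 2299 and 3130 CPM, against between 336.5 and 1028 CPM in controls. Mesenchymal markers (none of 9 called by edgeR, median log2 fold change 2.54) summed to between 865.8 and 4490 CPM, against between 295.3 and 730.7 CPM in controls. Endothelial markers (2 of 6 higher) summed to between 3171 and 4273 CPM, against between 1972 and 2063 CPM in controls. Mitochondrially encoded genes took 39.77% and 46.83% of counts, against 12.36% and 9.05% in controls. Markers of acinar cells, which are themselves rich in secretory machinery, summed to between 1771 and 3944 CPM in TSC1 KO islets and between 2923 and 3917 CPM in their controls, and Ptf1a was the acinar marker at 0 in all β-cell libraries. In Db islets the acinar sum was between 234.3 and 390.9 CPM, against between 77.75 and 80.99 CPM in controls, with 8 of 12 tested markers higher and 1 lower. Mesenchymal markers summed to between 505.7 and 533.7 CPM in Db islets, against between 179.5 and 278 CPM in controls (5 of 8 higher). Duct markers summed to between 813.7 and 857.1 CPM, against between 364.8 and 376.5 CPM in controls (2 of 7 higher, 2 lower), and endothelial ones to between 535.1 and 536.8 CPM, against between 723.8 and 747 CPM (1 of 6 higher, 3 lower). Markers of other endocrine cells summed to between 7656 and 10010 CPM in Db islets, against between 3923 and 7671 CPM in controls (1 of 9 higher, 2 lower). Of 6 immune markers tested there, 2 were lower and none higher. In adult cells 3 of 8 duct markers and 3 of 9 of other endocrine cells were lower than in neonatal cells. Fewer cells of a type and less RNA per cell cannot be told apart in such samples, and the part of these shifts in the results below was not tested. The transcript of Tsc1 stood at 31.0 and 34.5 CPM in TSC1 KO libraries, with 25.1 and 54.1 CPM in their controls (log2 fold change -0.28 with SE 0.38 and edgeR adjusted p = 0.638). It did not tell the groups apart, and a whole-islet count summed over all exons is no check of a deletion in β-cells. Lepr had 1 and 4 counts in Db libraries and 11 and 2 in BKS controls, too few for a test.

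A member was called higher or lower where the adjusted p of edgeR's quasi-likelihood test, over all genes tested, was under 0.05. Groups of 2 libraries that lie apart are described below, but this is no further support for a call. The uncalled members Sec63, Sec11a and Kdelr1 also lay apart in both islet comparisons, and the share of all genes that do so is not given here. In adult over neonatal β-cells 4 of 58 members were higher (6.90%, against 3.38% of 14304 genes) and 1 was lower (1.72%, against 3.60%), with a median log2 fold change of -0.01 over the members and -0.03 over all genes. In TSC1 KO over control islets 24 of 57 tested members were lower (42.1%, against 10.0% of 14515 genes) and 1 was higher (1.75%, against 8.63%). Their median was -0.72, against 0 over all genes, and 51 of the 57 values were negative. In Db over control islets 28 of 58 members were higher (48.3%, against 24.3% of 14369 genes) and 5 were lower (8.62%, against 23.9%), with a median of 0.46 over the members and -0.03 over all genes. Counts by role below are small and are to be read against these shares of all genes, which some roles do not exceed. The members together took 0.386% and 0.369% of the gene counts of TSC1 KO libraries, against 0.688% and 0.805% of those of their controls. They took 0.894% and 0.994% in Db islets, against 0.512% and 0.374% in theirs, and 1.42%, 1.6% and 1.58% in adult β-cells, against 1.76%, 1.63% and 1.6% in neonatal ones. The islet groups did not overlap in this share, and the β-cell groups did. Per 100 counts of the insulin genes Ins1 and Ins2, the members had 36.6 and 38.0 counts in TSC1 KO libraries and 2.80 and 2.89 in controls. In adult β-cells they had 20.4, 22.2 and 36.2 counts, against 67.1, 69.2 and 87.3 in neonatal ones, with no overlap and in the opposite direction to the islet pairs. In the Db pair they had 1.85 and 2.18 counts in Db libraries and 0.839 and 0.534 in controls. The ratio also moves with insulin itself, which took 1.05% and 0.969% of gene counts in TSC1 KO libraries, against 24.5% and 27.9% in controls. Insulin took 6.93%, 7.22% and 4.36% in adult β-cells, against 2.62%, 2.36% and 1.83% in neonatal ones. In Db libraries it took 48.3% and 45.5%, against 61.0% and 70.0% in controls.

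**Figure D1:**
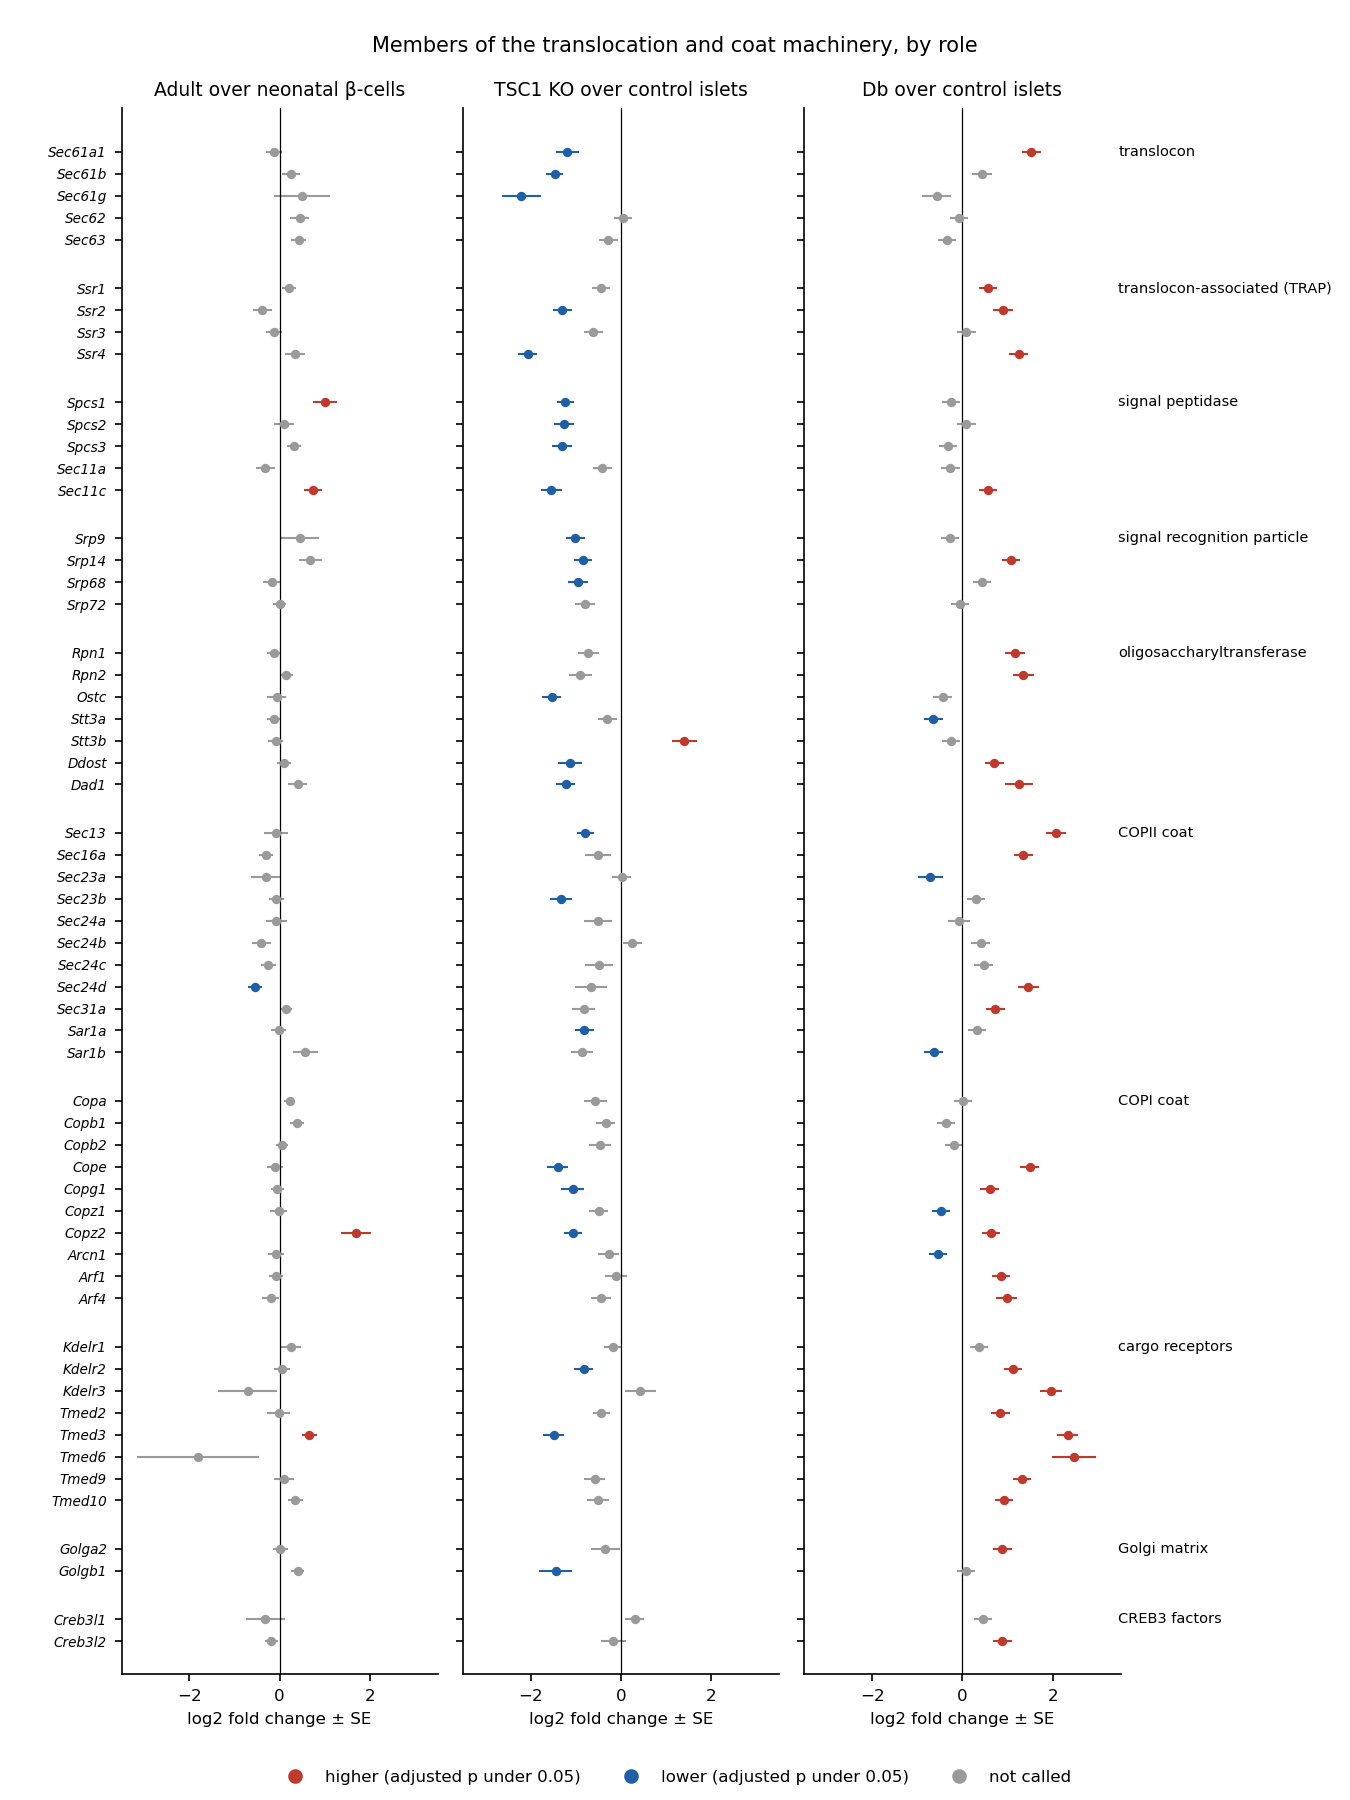
Log2 fold change ± SE (horizontal axis) of every member, grouped by role, in adult over neonatal β-cells (n = 3 each), TSC1 KO over control islets (n = 2 each) and Db over control islets (n = 2 each). Red and blue points passed edgeR's adjusted p of 0.05, with 4, 1 and 28 members higher and 1, 24 and 5 lower, and Tmed6 has no point in the middle panel because it was not tested.

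These counts rested on single libraries to different degrees. In the TSC1 KO comparison every call was lost without TSC1 KO replicate 1 (edgeR adjusted p from 0.095 to 0.251 over the 25 members) and without replicate 2 (0.151 to 0.314). The median log2 fold change was then -0.73 and -0.77 over the members, against -0.05 and -0.04 over all genes. Calls of members were lost in limma-voom as well, and DESeq2 made few, a share near that of all genes it called. Over all genes, too, edgeR and limma-voom lost every call in these fits, so the loss was not particular to the members. The direction held, as 53 of 58 members were negative in each of edgeR's fits without 1 of these libraries. In β-cells the members called numbered 1, 0 and 1 without adult replicate 1, 2 or 3, and 2 without the neonatal library called 3b. Of the 58 members, 8, 6, 7 and 10 had an unadjusted p under 0.05 in edgeR's fits. So had 2257 of 15098, 2296 of 15178, 2363 of 15178 and 2936 of 15147 genes. The share of members at that p was thus no higher than that of all genes. In Db islets 21 members were called without Db replicate 2, all of them higher, and 17 of the 33 calls held under all 12 alternatives tried.

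Expressed per kilobase of exon, the members with the highest mean level in β-cells were Ddost (242 CPM per kb), Rpn1 (237) and Arf1 (219). The lowest was the SRP subunit Srp9 (3.33). In the TSC1 KO table the highest were Arf1 (105 CPM per kb) and Ddost (90.7). In that of Db and control islets they were Ddost (194 CPM per kb), Tmed3 (166) and Sec61b (123), and the lowest was Sec23a (1.31).

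Promoters of 47 of the 58 members are in a RefSeq table of windows from 250 bases before to 50 bases after the gene start (GRCm38.p6). They were searched on both strands for elements through which ER stress factors such as XBP1 and ATF6 are known to act. The unfolded protein response element (UPRE, TGACGTGG) was found in 6 of the 47 (12.8%), against 193 of 27025 genes of the table (0.714%) and 116 of 11302 genes tested in a comparison (1.03%). The ER stress response element (ERSE, CCAAT and CCACG with 9 bases between) was found in 0 of the 47 and in 37 of all genes (0.137%), and ERSE-II (ATTGG and CCACG with 1 base between) in 0 of the 47 and 12 of all genes (0.0444%). The reverse complement of UPRE begins with the CCACG that ends both others. The members with UPRE were the GTPase gene Arf1, the COPI subunits Copb1 and Copb2, the KDEL receptor gene Kdelr3 and the COPII subunits Sec23a and Sec24d. Shown here because they let the values below be read beside the element are the stretches upstream of the start of 4 of them, 5′ to 3′ in the direction of the gene, with the element in capitals.
Arf1: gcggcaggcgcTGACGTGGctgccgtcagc
Copb1: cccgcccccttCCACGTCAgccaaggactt
Kdelr3: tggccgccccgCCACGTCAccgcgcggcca
Sec24d: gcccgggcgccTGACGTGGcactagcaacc
They lie at chr11:59228228-59228257 (Arf1, minus strand), chr7:114254690-114254719 (Copb1, minus strand), chr15:79516367-79516396 (Kdelr3, plus strand) and chr3:123267459-123267488 (Sec24d, plus strand) of GRCm38.p6. The element starts 84, 28, 30 and 26 bases before the RefSeq start of Arf1, Copb1, Kdelr3 and Sec24d. In Copb1 and Kdelr3 it stands on the opposite strand. A match of letters is a description and not a binding site. The 6 genes did not move together. In Db over control islets their log2 fold changes were 0.85 ± 0.20 for Arf1, -0.36 ± 0.20 for Copb1, -0.18 ± 0.20 for Copb2, 1.96 ± 0.25 for Kdelr3, -0.71 ± 0.28 for Sec23a and 1.46 ± 0.24 for Sec24d (± SE). Arf1, Kdelr3 and Sec24d were called higher there and Sec23a lower.

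The translocon proper is a channel of 3 subunits with 2 partners, Sec62 and Sec63, that help with chains which arrive after their synthesis. With the TSC1 KO label the 3 channel subunits were lower and the 2 partners were not called. Sec61a1, which encodes the pore, had 121 and 139.5 CPM in TSC1 KO islets, against 278 and 316 CPM in controls (log2 fold change -1.19 with SE 0.25, and edgeR adjusted p = 0.0304). Sec61b, a small tail-anchored subunit, had 30.1 and 33.8 CPM in TSC1 KO islets, against 85.9 and 90.5 CPM in controls (log2 fold change -1.47 with SE 0.19, and edgeR adjusted p = 0.0127). Sec61g, the other small subunit, had 1.63 and 1.67 CPM in TSC1 KO islets, against 7.74 and 7.65 CPM in controls (log2 fold change -2.21 with SE 0.43, and edgeR adjusted p = 0.0243). In each of the 3 genes both knockout libraries lay below both controls. Sec62 and Sec63 had log2 fold changes of 0.05 ± 0.20 and -0.28 ± 0.21 (± SE, edgeR adjusted p = 0.888 and 0.383), and the Sec62 groups overlapped. In Db islets 1 of the 5 was higher, near the 24.3% of all genes called higher there. Sec61a1 had 533 and 502 CPM in Db islets, against 178 and 183 CPM in controls (log2 fold change 1.52 with SE 0.21, and edgeR adjusted p = 1.41e-06), with both Db libraries far above both controls. Sec61b, at 203 and 156 CPM in Db islets, against 107 and 158 CPM in controls, and Sec61g, at 4.26 and 3.93 CPM in Db islets, against 4.07 and 8.21 CPM in controls, overlapped between the groups and were not called (edgeR adjusted p = 0.101 and 0.146). In β-cells edgeR called none of the 5 (2 at an unadjusted p under 0.05, Sec62 and Sec63). Over all genes 2978 of 14304 had such a p there. Sec61a1 had 427, 609.8 and 419.7 CPM in adult cells, against 566, 551 and 466 CPM in neonatal cells (log2 fold change -0.12 with SE 0.17, and edgeR adjusted p = 0.772), and the ages overlapped.

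The TRAP complex has the subunits Ssr1 to Ssr4 and assists the entry of chains whose signal sequences open the channel poorly, a group to which preproinsulin is known to belong. All 4 were below their controls in TSC1 KO islets, 2 of them past the test, and 3 of the 4 were higher in Db islets. Ssr4 had 44.3 and 42.1 CPM in TSC1 KO islets, against 172 and 191 CPM in controls (log2 fold change -2.07 with SE 0.22, and edgeR adjusted p = 0.0106). Ssr2 had 55.5 and 59.2 CPM in TSC1 KO islets, against 146 and 136 CPM in controls (log2 fold change -1.30 with SE 0.21, and edgeR adjusted p = 0.0164). The knockout and control libraries were fully apart for both genes. Ssr1 and Ssr3 had log2 fold changes of -0.45 ± 0.20 and -0.61 ± 0.21 in TSC1 KO islets (± SE, edgeR adjusted p = 0.161 and 0.0927). In the other islet comparison Ssr4 had 199 and 256 CPM in Db islets, against 86.4 and 105 CPM in controls (log2 fold change 1.25 with SE 0.21, and edgeR adjusted p = 2.3e-05). Ssr2 had 109 and 177 CPM in Db islets, against 84.6 and 70.1 CPM in controls (log2 fold change 0.89 with SE 0.22, and edgeR adjusted p = 0.00194) and Ssr1 had 185 and 151 CPM in Db islets, against 113 and 114 CPM in controls (log2 fold change 0.56 with SE 0.20, and edgeR adjusted p = 0.0225). Both Db libraries stood above both controls in these 3 genes, while those of Ssr3 overlapped (log2 fold change 0.08 with SE 0.21, and edgeR adjusted p = 0.756). Exons of Ssr2 share bases with a pseudogene on the other strand, so its counts are uncertain. Without Db replicate 2 the call of Ssr2 was lost (0.52, edgeR adjusted p = 0.164), and without Db replicate 1 that of Ssr1 (0.43, edgeR adjusted p = 0.25). In β-cells Ssr4 had 129.8, 210.2 and 183 CPM in adult cells, against 179.7, 116 and 118 CPM in neonatal cells (log2 fold change 0.34 with SE 0.22, and edgeR adjusted p = 0.431), and all 4 genes overlapped between the ages.

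Signal peptidase is built of a catalytic subunit, Sec11a or Sec11c, and the accessory subunits Spcs1, Spcs2 and Spcs3. It held 2 of the 5 members called in β-cells. Spcs1 had 73.6, 72.7 and 78.0 CPM in adult cells, against 46.6, 25.3 and 39.0 CPM in neonatal cells (log2 fold change 1.01 with SE 0.26, and edgeR adjusted p = 0.0255). Sec11c had 123, 178 and 159.7 CPM in adult cells, against 106, 103 and 68.0 CPM in neonatal cells (log2 fold change 0.74 with SE 0.21, and edgeR adjusted p = 0.0491). All adult libraries lay above all neonatal ones for both genes. The call of Spcs1 was lost without adult replicate 1, 2 or 3 (edgeR adjusted p = 0.0963, 0.0909 and 0.11), with library size as the only scaling (0.85, 0.0576) and with the GC trend removed (0.80, 0.0862). That of Sec11c was lost under 8 of 13 alternatives. They were DESeq2's size factors (0.73, adjusted p = 0.0505), library size only (0.57, 0.116), the GC trend removed (0.63, 0.0995), and the fits without adult replicate 1, 2 or 3 (0.0639, 0.253 and 0.174) or neonatal replicate 1 or 3b (0.0584 and 0.15). In TSC1 KO islets 4 of the 5 were lower, with a median log2 fold change of -1.26. Sec11c had 26.1 and 36.1 CPM in TSC1 KO islets, against 85.9 and 94.5 CPM in controls (log2 fold change -1.54 with SE 0.23, and edgeR adjusted p = 0.0156). Spcs3 had 50.1 and 46.5 CPM in TSC1 KO islets, against 105 and 133 CPM in controls (log2 fold change -1.30 with SE 0.22, and edgeR adjusted p = 0.0188), and Spcs2 had 57.6 and 54.9 CPM in TSC1 KO islets, against 122 and 147 CPM in controls (log2 fold change -1.26 with SE 0.22, and edgeR adjusted p = 0.0192). Spcs1 had 30.8 and 35.1 CPM in TSC1 KO islets, against 75.5 and 78.7 CPM in controls (log2 fold change -1.23 with SE 0.19, and edgeR adjusted p = 0.0164). Each of the 4 was lower in both knockout libraries than in both controls, by more than the spread within the groups, and the other catalytic subunit, Sec11a, was not called (log2 fold change -0.41 with SE 0.22, and edgeR adjusted p = 0.231). In Db islets 1 of the 5 was higher, Sec11c, which had 226 and 185 CPM in Db islets, against 143 and 134 CPM in controls (log2 fold change 0.57 with SE 0.20, and edgeR adjusted p = 0.0226). Its call was lost without Db replicate 1 (0.44, edgeR adjusted p = 0.248) or 2 (0.72, 0.0514). The other 4 had log2 fold changes between -0.32 and 0.08 there. As a count, 1 of 5 is near the 24.3% of all genes called higher in Db islets. Exons of Spcs1, Spcs3 and Sec11a overlap those of other genes, Spcs2 has a pseudogene copy, and no source used here gives the strand setting of the counting, so their counts are uncertain.

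The listed SRP subunits work in pairs: Srp9 and Srp14 pause translation, and Srp68 and Srp72 bind the particle's RNA. Of the 4, 3 were lower in TSC1 KO islets. All 4 had an unadjusted p under 0.05 by edgeR, as had 5290 of the 14515 genes tested. Srp9 had 23.8 and 19.4 CPM in TSC1 KO islets, against 41.7 and 45.5 CPM in controls (log2 fold change -1.01 with SE 0.21, and edgeR adjusted p = 0.0292). Srp68 had 53.8 and 61.5 CPM in TSC1 KO islets, against 101 and 123 CPM in controls (log2 fold change -0.96 with SE 0.22, and edgeR adjusted p = 0.0348), and Srp14 had 38.0 and 33.1 CPM in TSC1 KO islets, against 66.8 and 60.6 CPM in controls (log2 fold change -0.84 with SE 0.20, and edgeR adjusted p = 0.0368). The groups were apart in all 3, and Srp72 was just short of the threshold (log2 fold change -0.80 with SE 0.22, and edgeR adjusted p = 0.0546). With DESeq2's test the adjusted p of Srp14 was 0.0656. In Db islets Srp14 alone of the 4 was higher, with 51.5 and 52.7 CPM in Db islets, against 24.1 and 25.5 CPM in controls (log2 fold change 1.07 with SE 0.20, and edgeR adjusted p = 0.000103), while its partner Srp9 had 46.2 and 36.5 CPM in Db islets, against 52.4 and 48.3 CPM in controls and was not called (log2 fold change -0.28 with SE 0.20, and edgeR adjusted p = 0.252). Both Db libraries held about the same level of Srp14, well above both controls. As a count, 1 of 4 is near the 24.3% of all genes called higher in Db islets. In β-cells edgeR called 0 of the 4 (1 at an unadjusted p under 0.05, Srp14, log2 fold change 0.68 with SE 0.25, and edgeR adjusted p = 0.119), and DESeq2 and limma-voom called no members beyond the 5 of edgeR.

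Among the oligosaccharyltransferase subunits, Stt3a and Stt3b are alternative catalytic subunits, of which the STT3A complex acts on chains as they enter the ER and the STT3B complex on sites that were missed. Stt3b was the member called higher in TSC1 KO islets, while 3 others of the 7 were lower. Stt3b had 123 and 195 CPM in TSC1 KO islets, against 62.4 and 57.8 CPM in controls (log2 fold change 1.40 with SE 0.28, and edgeR adjusted p = 0.0265), and Stt3a had 73.9 and 85.0 CPM in TSC1 KO islets, against 86.1 and 109 CPM in controls (log2 fold change -0.30 with SE 0.22, and edgeR adjusted p = 0.384). Both knockout libraries were above both controls for Stt3b, with the 2 knockout values far from each other. Ostc, a subunit of the STT3A complex that joins it to the channel, had 28.7 and 33.4 CPM in TSC1 KO islets, against 81.4 and 98.3 CPM in controls (log2 fold change -1.53 with SE 0.21, and edgeR adjusted p = 0.0132). Dad1, a small subunit of both complexes, had 60.4 and 52.5 CPM in TSC1 KO islets, against 136 and 127 CPM in controls (log2 fold change -1.22 with SE 0.21, and edgeR adjusted p = 0.0192), and Ddost, another shared subunit, had 110.2 and 131 CPM in TSC1 KO islets, against 230.0 and 297 CPM in controls (log2 fold change -1.13 with SE 0.27, and edgeR adjusted p = 0.0381). For these 3 genes the knockout libraries lay wholly below the controls. Rpn1 and Rpn2, the ribophorins, had log2 fold changes of -0.72 ± 0.24 and -0.90 ± 0.26 that were not called (± SE, edgeR adjusted p = 0.0863 and 0.0627).

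In Db islets 4 oligosaccharyltransferase subunits were higher and Stt3a was lower. Rpn2 had 511 and 696 CPM in Db islets, against 282 and 192 CPM in controls (log2 fold change 1.35 with SE 0.23, and edgeR adjusted p = 3.41e-05). Rpn1 had 438 and 436 CPM in Db islets, against 228 and 163 CPM in controls (log2 fold change 1.16 with SE 0.22, and edgeR adjusted p = 8.15e-05). These ribophorin transcripts were the clearest of the group, with every Db library above every control and the call kept under all 12 alternatives. Dad1 had 67.6 and 143 CPM in Db islets, against 39.6 and 48.9 CPM in controls (log2 fold change 1.25 with SE 0.31, and edgeR adjusted p = 0.00777), and Ddost had 466 and 555 CPM in Db islets, against 343 and 281 CPM in controls (log2 fold change 0.71 with SE 0.21, and edgeR adjusted p = 0.00741). Db replicate 2 held a much higher level than replicate 1 for Dad1, and without it the calls of Dad1 (0.63, edgeR adjusted p = 0.0779) and Ddost (0.60, 0.139) were lost. Stt3a had 53.2 and 39.0 CPM in Db islets, against 68.3 and 76.2 CPM in controls (log2 fold change -0.65 with SE 0.21, and edgeR adjusted p = 0.0106). The groups were apart for Stt3a, but its call was lost without Db replicate 2 (-0.42, edgeR adjusted p = 0.277) and with library size only (-0.34, 0.43), and the direction turned once the trend with GC content was removed (0.09, 0.71). In β-cells edgeR called 0 of the 7, with 0 at an unadjusted p under 0.05. Rpn2 shares exon bases with Mroh8 on the other strand.

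COPII vesicles form at ER exit sites marked by Sec16a, when the GTPase Sar1 recruits the inner coat of Sec23 and Sec24, which binds cargo, and then the outer cage of Sec13 and Sec31. In Db islets 4 of the 11 members were higher and 2 lower, where 24.3% of all genes were higher and 23.9% lower. Sec13 had 94.7 and 124 CPM in Db islets, against 23.4 and 28.9 CPM in controls (log2 fold change 2.07 with SE 0.22, and edgeR adjusted p = 1.33e-08). Sec24d, which carries a UPRE in the stretch shown above, had 98.8 and 105 CPM in Db islets, against 25.4 and 49.0 CPM in controls (log2 fold change 1.46 with SE 0.24, and edgeR adjusted p = 5.35e-05). Sec16a had 138 and 148 CPM in Db islets, against 49.0 and 63.0 CPM in controls (log2 fold change 1.35 with SE 0.21, and edgeR adjusted p = 5.65e-06). Every Db library stood well above every control in these 3, and their calls held under all 12 alternatives. Sec31a had 156 and 212 CPM in Db islets, against 115 and 108 CPM in controls (log2 fold change 0.73 with SE 0.21, and edgeR adjusted p = 0.00504), a call lost without Db replicate 2 (0.51, edgeR adjusted p = 0.18). The 3 other Sec24 genes were not called, with log2 fold changes of -0.07 ± 0.24 for Sec24a, 0.41 ± 0.21 for Sec24b and 0.47 ± 0.21 for Sec24c (± SE, edgeR adjusted p = 0.834, 0.109 and 0.0708). Sar1b had 21.6 and 22.0 CPM in Db islets, against 35.0 and 32.6 CPM in controls (log2 fold change -0.63 with SE 0.21, and edgeR adjusted p = 0.0124), and Sec23a had 5.36 and 4.27 CPM in Db islets, against 8.25 and 7.45 CPM in controls (log2 fold change -0.71 with SE 0.28, and edgeR adjusted p = 0.0396). The Db values of both were below the controls, at low levels for Sec23a. Both calls were lost with library size only (-0.33 and -0.41, edgeR adjusted p = 0.433 and 0.374) and with the GC trend removed (-0.04 and -0.09, 0.887 and 0.803). Without Db replicate 1 or 2 the adjusted p was 0.0993 and 0.0962 for Sar1b and 0.0713 and 0.3 for Sec23a, and without BKS control replicate 1 or 2 it was 0.146 and 0.053 for Sec23a. The call of Sec23a was lost under 9 of 12 alternatives, which also include DESeq2's test (adjusted p = 0.126), no filter on low counts (0.0979) and the replicate block (0.0548). Their paralogs Sar1a and Sec23b had log2 fold changes of 0.32 ± 0.20 and 0.31 ± 0.20 and were not called (± SE, edgeR adjusted p = 0.185 and 0.193).

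Of the 11 COPII members, 3 were lower in TSC1 KO islets. Sec23b had 33.3 and 31.4 CPM in TSC1 KO islets, against 67.6 and 95.6 CPM in controls (log2 fold change -1.33 with SE 0.24, and edgeR adjusted p = 0.0208). Sec13 had 43.8 and 40.1 CPM in TSC1 KO islets, against 67.8 and 77.4 CPM in controls (log2 fold change -0.79 with SE 0.19, and edgeR adjusted p = 0.0415). Sar1a had 98.8 and 94.3 CPM in TSC1 KO islets, against 164 and 174 CPM in controls (log2 fold change -0.81 with SE 0.21, and edgeR adjusted p = 0.0497). The knockout libraries lay below the controls in all 3, while Sec23a read 23.5 and 20.4 CPM in TSC1 KO islets, against 21.0 and 22.4 CPM in controls and overlapped (log2 fold change 0.02 with SE 0.21, and edgeR adjusted p = 0.953). The Sec13 call was lost without RC control replicate 2 (-0.69, edgeR adjusted p = 0.051) and with DESeq2's test (0.0802), and that of Sar1a with DESeq2's size factors (-0.80, adjusted p = 0.0506). Sec24d, at 36.6 and 50.5 CPM in TSC1 KO islets, against 47.7 and 89.2 CPM in controls, overlapped between the groups (log2 fold change -0.66 with SE 0.35, and edgeR adjusted p = 0.23). In β-cells 1 of the 11 was called. Sec24d had 328, 342 and 313 CPM in adult cells, against 434, 485 and 505 CPM in neonatal cells (log2 fold change -0.54 with SE 0.15, and edgeR adjusted p = 0.0362), with all adult libraries below all neonatal ones. Without adult replicate 1, 2 or 3 the adjusted p was 0.148, 0.134 and 0.172, and without neonatal replicate 3b it was 0.106.

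**Figure D2:**
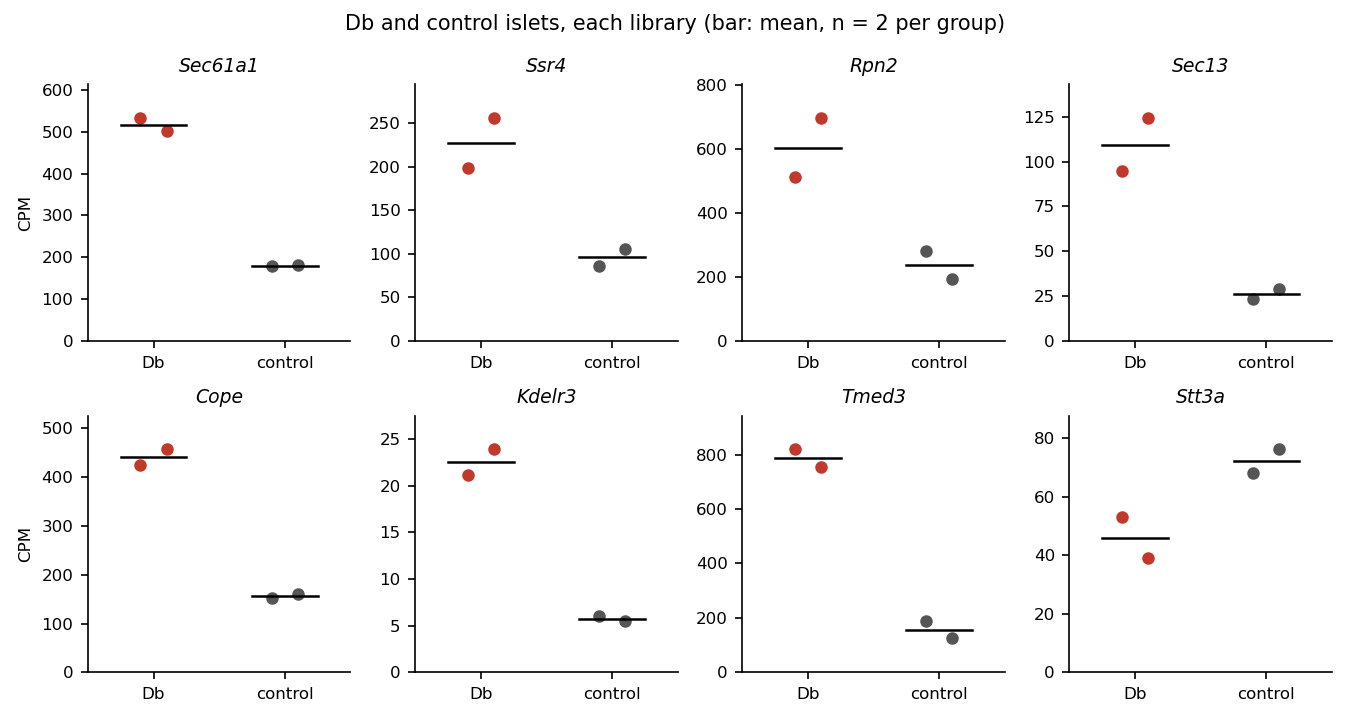
CPM (vertical axis, from 0) of 8 members in each Db library (red, left) and BKS control library (grey, right), with the mean of the 2 libraries as a bar. The groups are apart in every panel, above the controls for Sec61a1, Ssr4, Rpn2, Sec13, Cope, Kdelr3 and Tmed3 and below them for Stt3a.

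The COPI coat is a complex of 7 kinds of subunit, of which the ζ subunit exists as Copz1 or Copz2, and it is recruited to membranes by Arf1 and other GTPases. Copz2 was the member with the largest called change in β-cells, with 61.5, 93.3 and 64.8 CPM in adult cells, against 36.8, 16.4 and 15.1 CPM in neonatal cells (log2 fold change 1.69 with SE 0.34, and edgeR adjusted p = 0.0066). All adult libraries lay above all neonatal ones, and the call held under 12 of 13 alternatives, the exception being without adult replicate 2 (1.48, edgeR adjusted p = 0.0535). Copz1 had 107, 128 and 131 CPM in adult cells, against 117, 105 and 148 CPM in neonatal cells and was not called (log2 fold change -0.02 with SE 0.19, and edgeR adjusted p = 0.971). Of the 10 COPI members, 3 were lower in TSC1 KO islets. Cope, the ε subunit, had 84.1 and 81.6 CPM in TSC1 KO islets, against 227 and 210.1 CPM in controls (log2 fold change -1.40 with SE 0.23, and edgeR adjusted p = 0.017). Copz2 had 20.3 and 21.4 CPM in TSC1 KO islets, against 45.7 and 41.9 CPM in controls (log2 fold change -1.07 with SE 0.20, and edgeR adjusted p = 0.0219), and Copg1, the γ subunit, had 124 and 124 CPM in TSC1 KO islets, against 228 and 292 CPM in controls (log2 fold change -1.07 with SE 0.26, and edgeR adjusted p = 0.039). For each of them the knockout libraries were wholly below the controls, and the other 7 members of the coat had negative log2 fold changes between -0.57 and -0.11 that were not called.

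In Db islets 5 of the 10 COPI members were higher and 2 lower, where 24.3% of all genes were higher and 23.9% lower. Cope had 425 and 457 CPM in Db islets, against 152 and 161 CPM in controls (log2 fold change 1.49 with SE 0.21, and edgeR adjusted p = 1.64e-06). Arf4, a GTPase of the Golgi, had 112 and 79.6 CPM in Db islets, against 36.8 and 60.8 CPM in controls (log2 fold change 0.98 with SE 0.23, and edgeR adjusted p = 0.00149). Arf1, whose UPRE is printed above, had 233 and 253 CPM in Db islets, against 124 and 146 CPM in controls (log2 fold change 0.85 with SE 0.20, and edgeR adjusted p = 0.00114). All Db values of these 3 were above all control values, with the widest gap in Cope. Copz2 had 59.8 and 63.9 CPM in Db islets, against 40.0 and 39.5 CPM in controls (log2 fold change 0.64 with SE 0.20, and edgeR adjusted p = 0.00919), and Copg1 had 148 and 216 CPM in Db islets, against 125 and 115 CPM in controls (log2 fold change 0.60 with SE 0.21, and edgeR adjusted p = 0.0211). Their calls were lost without Db replicate 2 (0.61 and 0.32, edgeR adjusted p = 0.0914 and 0.432). Arcn1, the δ subunit, had 68.0 and 61.4 CPM in Db islets, against 79.5 and 109 CPM in controls (log2 fold change -0.54 with SE 0.20, and edgeR adjusted p = 0.0308), and Copz1 had 39.4 and 40.9 CPM in Db islets, against 57.1 and 54.8 CPM in controls (log2 fold change -0.48 with SE 0.20, and edgeR adjusted p = 0.045). Both were lower in each Db library than in each control, although by less than in the genes that were higher. With library size only the log2 fold changes were -0.20 for Arcn1 and -0.17 for Copz1 (edgeR adjusted p = 0.661 and 0.704). Without Db replicate 1 or 2 the adjusted p was 0.108 and 0.251 for Arcn1 and 0.246 and 0.207 for Copz1. Without BKS control replicate 2 it was 0.295 for Arcn1 and 0.0517 for Copz1, with 0.0969 for Copz1 without BKS control replicate 1. The Copz1 call was lost under 10 of 12 alternatives, also with DESeq2's size factors (adjusted p = 0.0516) or test (0.0757), insulin and mitochondrial genes removed (0.0559), no filter (0.152) and the replicate block (0.0626). That of Arcn1 was lost under 7 of 12, also with DESeq2's test (0.0567) and no filter (0.0827). Copb1, with its UPRE, had 59.5 and 44.2 CPM in Db islets, against 67.9 and 65.6 CPM in controls and was not called (log2 fold change -0.36 with SE 0.20, and edgeR adjusted p = 0.139). Arf4 and Copa overlap exons on the other strand (Arf4os and Pde12, and Ncstn).

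**Figure D3:**
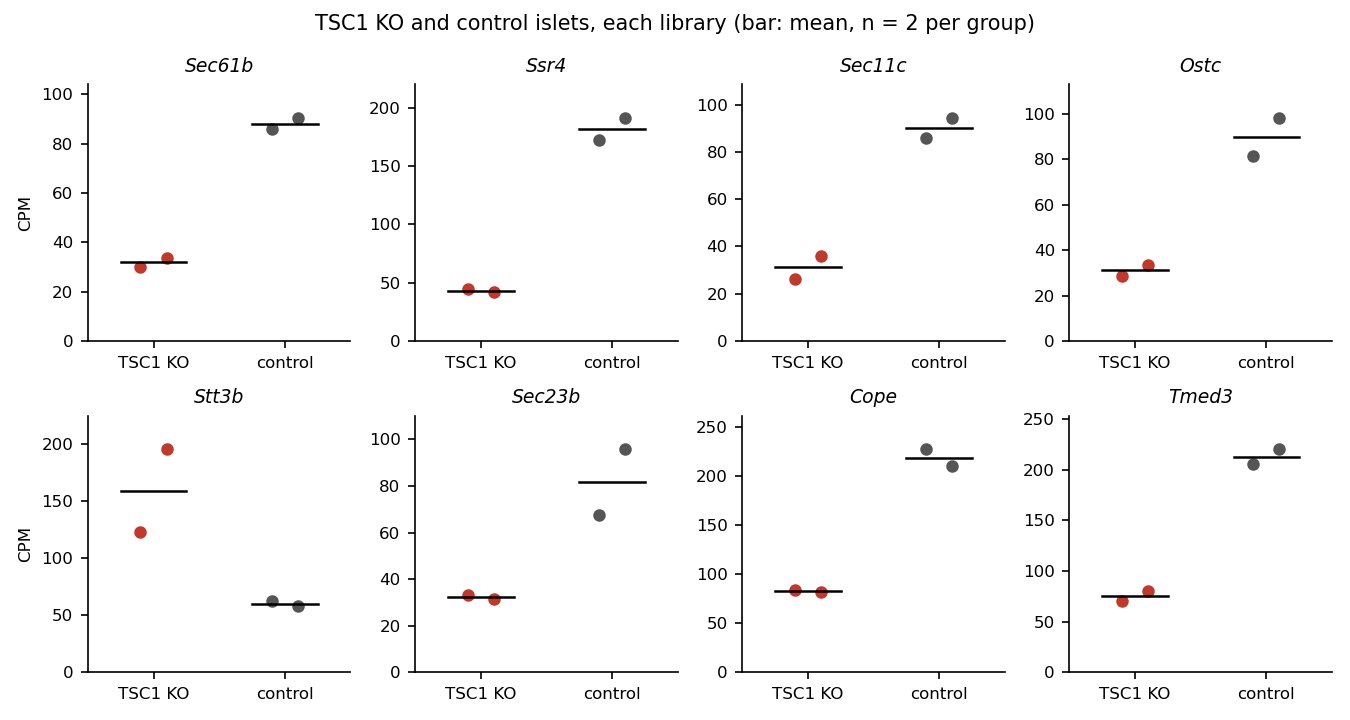
CPM (vertical axis, from 0) of 8 members in each TSC1 KO library (red, left) and RC control library (grey, right), with the mean of the 2 libraries as a bar. The groups are apart in every panel, below the controls for Sec61b, Ssr4, Sec11c, Ostc, Sec23b, Cope and Tmed3 and above them for Stt3b.

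Cargo receptors were the role with the most members higher in Db islets, 7 of 8, with a median log2 fold change of 1.22. KDEL receptors return ER chaperones that carry the retrieval signal KDEL, and the TMED proteins are membrane receptors that cycle between the ER and the Golgi and take part in forming both coats. Tmed3 had 819 and 755 CPM in Db islets, against 187 and 125 CPM in controls (log2 fold change 2.33 with SE 0.23, and edgeR adjusted p = 6e-09). Tmed9 had 253 and 274 CPM in Db islets, against 111 and 101 CPM in controls (log2 fold change 1.32 with SE 0.20, and edgeR adjusted p = 7.18e-06). Tmed10 had 139 and 112 CPM in Db islets, against 68.5 and 63.1 CPM in controls (log2 fold change 0.93 with SE 0.20, and edgeR adjusted p = 0.000473). Every Db library was above every control in these 3 TMED genes, and Tmed3 was the most abundant cargo receptor per length in this table. Tmed6, at 2.76 and 3.78 CPM in Db islets, against 0.535 and 0.642 CPM in controls and so close to the detection limit, had the largest fold change of all members (log2 fold change 2.47 with SE 0.48, and edgeR adjusted p = 0.000125). Kdelr3, with the UPRE shown above, had 21.1 and 23.9 CPM in Db islets, against 6.00 and 5.52 CPM in controls (log2 fold change 1.96 with SE 0.25, and edgeR adjusted p = 3.43e-07), and Kdelr2 had 273 and 198 CPM in Db islets, against 98.8 and 118 CPM in controls (log2 fold change 1.12 with SE 0.21, and edgeR adjusted p = 0.000102). Kdelr1 had 194 and 156 CPM in Db islets, against 138 and 134 CPM in controls and was not called (log2 fold change 0.36 with SE 0.20, and edgeR adjusted p = 0.14), although both its Db values were above both controls. Tmed2 had 45.6 and 35.2 CPM in Db islets, against 21.6 and 23.6 CPM in controls (log2 fold change 0.84 with SE 0.21, and edgeR adjusted p = 0.00194), a call lost without Db replicate 1 (0.66, edgeR adjusted p = 0.0544). The calls of the other 6 held under all 12 alternatives. Tmed10 has a pseudogene copy and Kdelr3 shares 4 exon bases with Ddx17 on the other strand, so reads of these genes may be split.

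The cargo receptors lower in TSC1 KO islets numbered 2. Tmed3 had 70.8 and 80.3 CPM in TSC1 KO islets, against 206 and 220.0 CPM in controls (log2 fold change -1.49 with SE 0.23, and edgeR adjusted p = 0.016), and Kdelr2 had 52.4 and 53.5 CPM in TSC1 KO islets, against 85.3 and 102 CPM in controls (log2 fold change -0.83 with SE 0.20, and edgeR adjusted p = 0.0415). Both knockout libraries were below both controls for each, and DESeq2's adjusted p for Kdelr2 was 0.0553. Kdelr3 had 8.86 and 14.1 CPM in TSC1 KO islets, against 7.58 and 9.27 CPM in controls and overlapped (log2 fold change 0.43 with SE 0.35, and edgeR adjusted p = 0.423). Tmed6, at 1.17 and 1.34 CPM in TSC1 KO islets, against 1.58 and 2.94 CPM in controls, had too few counts for a test. In β-cells Tmed3 was higher, with 255, 272 and 271 CPM in adult cells, against 200.2, 157 and 146 CPM in neonatal cells (log2 fold change 0.66 with SE 0.17, and edgeR adjusted p = 0.0264), and every adult library was above every neonatal one. That call was lost without adult replicate 1, 2 or 3 (edgeR adjusted p = 0.0907, 0.12 and 0.115), without neonatal replicate 3b (0.0904) and with library size only (0.50, 0.0878). Kdelr3, at 2.27, 10.99 and 6.56 CPM in adult cells, against 16.0, 11.1 and 5.36 CPM in neonatal cells, and Tmed6, at 1.41, 0 and 2.88 CPM in adult cells, against 7.81, 5.51 and 1.70 CPM in neonatal cells, varied among libraries of the same age and overlapped (log2 fold change -0.71 with SE 0.65, and edgeR adjusted p = 0.617 for Kdelr3, and log2 fold change -1.81 with SE 1.35, and edgeR adjusted p = 0.513 for Tmed6). Tmed3, Sec11c and Copz2 were the members called in all 3 comparisons.

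The Golgi matrix members tether vesicles at the Golgi. Golgb1, which encodes giantin, had 94.4 and 81.9 CPM in TSC1 KO islets, against 165 and 316 CPM in controls (log2 fold change -1.45 with SE 0.36, and edgeR adjusted p = 0.0426). The knockout libraries were below the controls, which lay far from each other, and the log2 fold change was -0.90 without RC control replicate 2 and -1.84 without RC control replicate 1. Golga2 had 180.3 and 179.6 CPM in Db islets, against 115 and 80.9 CPM in controls (log2 fold change 0.88 with SE 0.21, and edgeR adjusted p = 0.00109), all Db values above the controls, and shares exon bases with Swi5 on the other strand. The CREB3 factors Creb3l1 and Creb3l2 are held in the ER membrane and, once cut free in the Golgi, are known to raise transcription of coat and translocation genes. Creb3l2 had 112 and 116 CPM in Db islets, against 50.6 and 73.5 CPM in controls (log2 fold change 0.88 with SE 0.21, and edgeR adjusted p = 0.00108), and Creb3l1 had 65.0 and 64.2 CPM in Db islets, against 41.5 and 52.4 CPM in controls (log2 fold change 0.46 with SE 0.20, and edgeR adjusted p = 0.0579). Both genes were higher in each Db library than in each control, and Creb3l1 passed the test under 4 of 12 alternatives (edgeR adjusted p = 0.0441, 0.049, 0.0226 and 0.00711), of which 1 leaves out BKS control replicate 2 (0.67). In TSC1 KO islets Creb3l1 had 42.9 and 55.9 CPM in TSC1 KO islets, against 41.4 and 38.7 CPM in controls (log2 fold change 0.30 with SE 0.21, and edgeR adjusted p = 0.361) and Creb3l2 had 85.5 and 102 CPM in TSC1 KO islets, against 83.9 and 127 CPM in controls (log2 fold change -0.17 with SE 0.27, and edgeR adjusted p = 0.686). The direction for Creb3l2 turned without RC control replicate 2 (0.15, edgeR adjusted p = 0.632). In β-cells Creb3l1 had 30.8, 46.5 and 47.2 CPM in adult cells, against 27.4, 96.8 and 30.8 CPM in neonatal cells (log2 fold change -0.32 with SE 0.43, and edgeR adjusted p = 0.766), with the value of neonatal replicate 3a far above the rest. Its direction turned without that library (0.51, edgeR adjusted p = 0.343). Creb3l2 had 367, 401 and 354 CPM in adult cells, against 396, 448 and 429 CPM in neonatal cells (log2 fold change -0.18 with SE 0.15, and edgeR adjusted p = 0.546), and the ages overlapped for both.

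The effects of the TSC1 KO and Db labels were set against each other in a joint fit of the 8 islet libraries, which tests their difference gene by gene. The 2 pairs also differ in age and table and carry different unexplained name prefixes, and these cannot be told apart from the TSC1 KO and Db labels. The difference, TSC1 KO effect minus Db effect, was called lower for 39 of 58 members (67.2%, against 18.6% of 15702 genes) and higher for 1, Stt3b (1.72%, against 13.2%), with a median of -1.39 over the members and 0 over all genes. It was largest for Tmed3 (-3.92 ± 0.36), Tmed6 (-3.41 ± 0.80), Ssr4 (-3.40 ± 0.32), Cope (-2.98 ± 0.30) and Sec13 (-2.94 ± 0.31; log2 difference ± SE, edgeR adjusted p = 2.94e-05, 0.0069, 3.1e-05, 4.72e-05 and 6.09e-05). For Stt3b it was 1.56 ± 0.34 (log2 difference ± SE, edgeR adjusted p = 0.00458; 1.04, 0.0559 with library size only). Of the 40 calls, 28 held under all 16 alternatives. They include Tmed6, which had too few counts for a test of the TSC1 KO effect alone. Its difference therefore shows no TSC1 KO effect by itself. Called lower in TSC1 KO islets and higher in Db islets were 13 members, which is 54.2% of the 24 lower in TSC1 KO and 46.4% of the 28 higher in Db islets. These shares are close to those over all tested members, of which 48.3% were higher in Db islets and 42.1% lower in TSC1 KO islets. The 13 are Tmed3, Ssr4, Cope, Sec13, Sec61a1, Dad1, Ssr2, Sec11c, Kdelr2, Srp14, Ddost, Copz2 and Copg1, which include no Golgi matrix gene or CREB3 factor. Of all 58 members they are 22.4%, where 439 of the 13395 genes tested in both comparisons (3.28%) were called in that way.

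**Figure D4:**
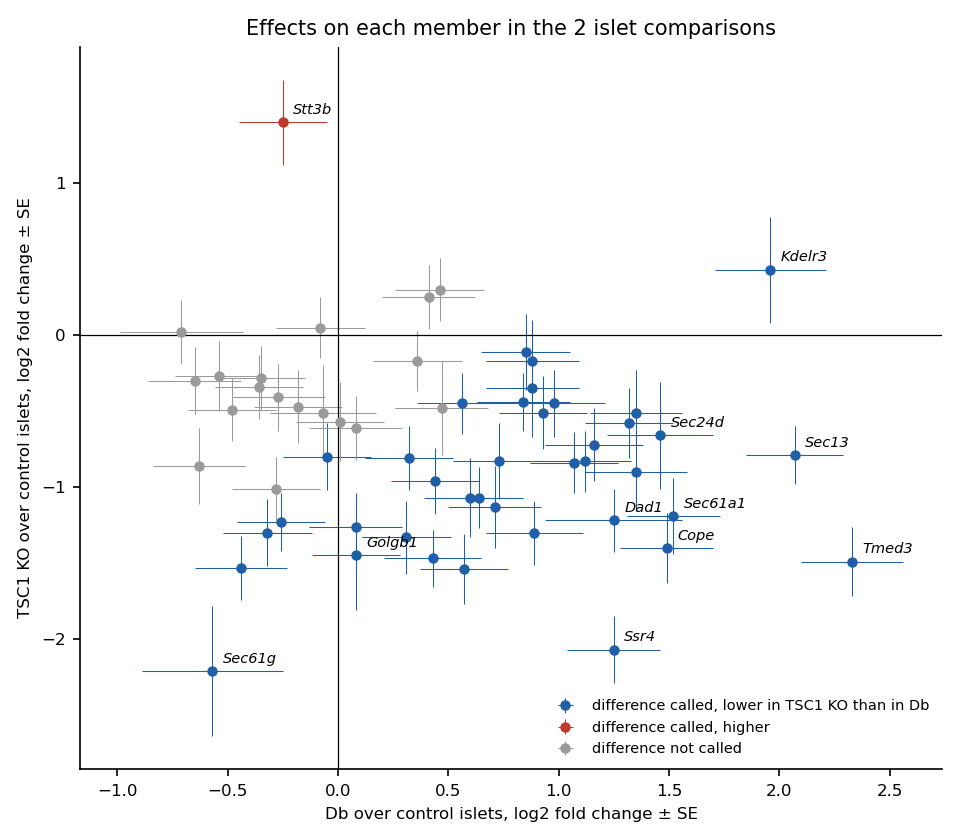
Log2 fold change ± SE in TSC1 KO over control islets (vertical axis) against that in Db over control islets (horizontal axis) for the 57 members tested in both, n = 2 libraries per group. Blue and red mark members whose difference between the 2 effects passed edgeR's adjusted p of 0.05. Most points lie below 0 on the vertical axis, Tmed3, Ssr4 and Cope stand out at the lower right, and Stt3b is the red point above.

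In the Db comparison the log2 fold change moved with the GC content of a gene's longest transcript. The Pearson correlation was 0.32 across 13855 genes and 0.51 across the 58 members, which are not independent replicates and share the same 4 libraries. Genes were put in 5 bins of equal size by GC content. In the lowest bin, up to 44.5%, the median log2 fold change of all genes was -0.74 and 49.8% of genes were called lower. The 15 members of that bin had a median of -0.27, with 2 higher and 4 lower. In the middle bin the median of all genes was 0.13 and that of the 17 members 0.88, with 10 higher, where 26.2% of all genes were. In the second bin the medians were -0.30 and 0.56, with 8 of 14 members higher, against 14.4% of genes. In the fourth bin they were 0.45 and 0.85, with 7 of 9 members higher, against 39.7%. In the highest bin they were 0.31 and 0.46, with 1 of 3 members higher, against 35.9%. With the trend removed, 26 of 58 members were higher and 1 was lower in Db islets, and of 14369 genes 2944 were higher and 2701 lower. Stt3a turned direction, and 9 other calls were lost. These were Sar1b, Sec23a and Arcn1 (-0.04, edgeR adjusted p = 0.886) among those lower and Ssr2 (0.40, 0.143), Ddost (0.23, 0.377), Sec31a (0.39, 0.116), Copz2 (0.46, 0.0524), Arf1 (0.47, 0.0606) and Golga2 (0.41, 0.112) among those higher. Members that passed once the trend was removed were Ssr3 (0.81, edgeR adjusted p = 0.00195), Sec23b (1.02, 0.000257), Sar1a (0.54, 0.0312) and Sec62, which turned direction (0.54, 0.0253). The values of Tmed3 (2.16), Sec13 (2.05), Kdelr3 (1.74), Arf4 (1.49), Sec61a1 (1.09) and Cope (1.02) stayed past the test. In the TSC1 KO comparison the correlations were -0.05 over all genes and -0.03 over the members, and each bin of GC content held members that were lower.

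**Figure D5:**
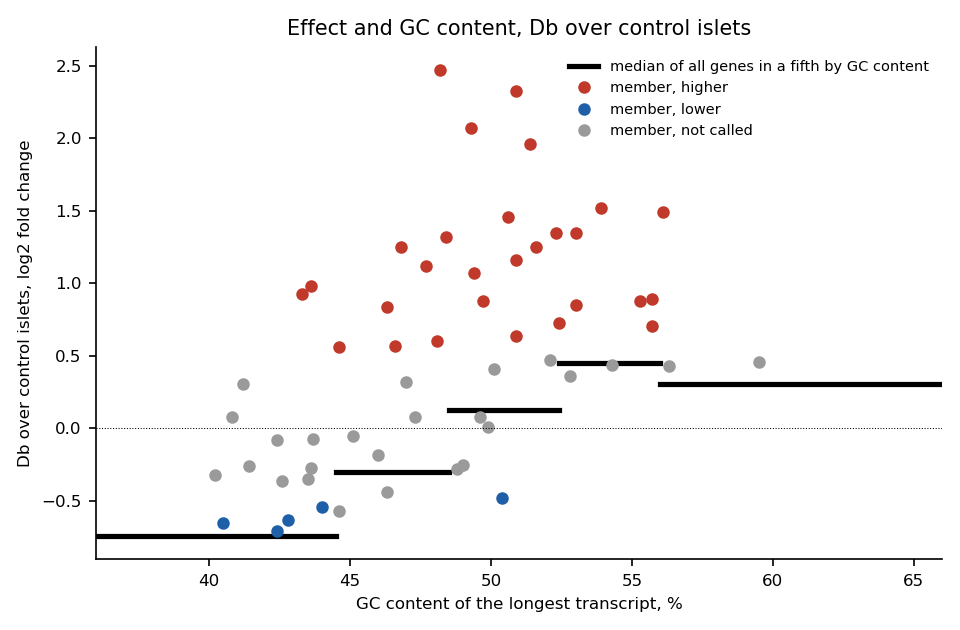
Log2 fold change in Db over control islets (vertical axis) of each member against the GC content of its longest transcript (horizontal axis, %), n = 2 libraries per group. Black lines are the medians of all genes in each of 5 bins by GC content, which run from -0.74 to 0.45, with the outer bins drawn only within the axis. Members called higher lie above the line of their bin, and 4 of the 5 called lower lie in the lowest bin, also above its line.

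Other genes of the same pathways, 8 lists with 128 genes in the files, were set beside the members. In TSC1 KO islets 29 of 124 tested were lower and 2 higher, with a median log2 fold change of -0.42. In Db islets 46 of 125 were higher and 16 lower, with a median of 0.29, and in β-cells 6 of 125 were higher and 1 lower, with a median of 0.14. Each is to be read against the shares of all genes given above. Among genes for targeting to the ER, Srprb, the β subunit of the SRP receptor, averaged 19.6 ± 1.08 CPM in TSC1 KO islets, against 44.5 ± 0.731 CPM in controls (SD, n = 2 each; log2 fold change -1.18 with SE 0.20 and edgeR adjusted p = 0.0182). The same gene averaged 104 ± 10.1 CPM in Db islets, against 31.3 ± 0.533 CPM in controls (SD, n = 2 each; log2 fold change 1.73 with SE 0.20 and edgeR adjusted p = 1.2e-07). Dpm3, which stabilises the enzyme that makes dolichol phosphate mannose, the sugar donor used in glycosylation, averaged 147 ± 23.8 CPM in Db islets, against 19.7 ± 1.77 CPM in controls (SD, n = 2 each; log2 fold change 2.91 with SE 0.22 and edgeR adjusted p = 3.24e-11). It averaged 12.7 ± 1.86 CPM in TSC1 KO islets, against 34.8 ± 1.97 CPM in controls (SD, n = 2 each; log2 fold change -1.46 with SE 0.23 and edgeR adjusted p = 0.0164). Both genes thus moved in the opposite direction in the 2 islet comparisons, and the joint fit gave differences of -3.00 ± 0.29 for Srprb and -4.45 ± 0.32 for Dpm3 (log2 ± SE, edgeR adjusted p = 3.1e-05 and 7.64e-06).

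The COPII list without the members had 11 of 21 genes higher and 1 lower in Db islets, against 24.3% and 23.9% of all genes. In TSC1 KO islets it had 7 of 20 lower and 1 higher, against 10.0% and 8.63% of all genes. Ergic1, a membrane protein of the compartment between ER and Golgi, averaged 126 ± 12.8 CPM in Db islets, against 34.9 ± 4.30 CPM in controls (SD, n = 2 each; log2 fold change 1.85 with SE 0.21 and edgeR adjusted p = 4.39e-08). Preb, which activates Sar1, averaged 59.1 ± 2.74 CPM in TSC1 KO islets, against 201 ± 23.0 CPM in controls (SD, n = 2 each; log2 fold change -1.76 with SE 0.23 and edgeR adjusted p = 0.0123). The EMC and GET genes, which insert membrane proteins by another route, had 4 of 14 higher and 2 lower in Db islets. These counts are near or below the shares of all genes (24.3% and 23.9%). In TSC1 KO islets edgeR called none of the 14, where the lowest adjusted p was 0.0935. In β-cells Srpr, the α subunit of the SRP receptor, averaged 826 ± 104 CPM in adult and 523 ± 52.8 CPM in neonatal cells (SD, n = 3 each; log2 fold change 0.66 with SE 0.15 and edgeR adjusted p = 0.0134). Tmed5, a TMED gene outside the list of members, averaged 42.6 ± 5.36 CPM in adult and 12.2 ± 6.51 CPM in neonatal cells (SD, n = 3 each; log2 fold change 1.81 with SE 0.39 and edgeR adjusted p = 0.00924).

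The list of CREB3 relatives, their proteases and other ER stress genes had 4 of 9 genes higher and 1 lower in Db islets (24.3% and 23.9% of all genes). It had 1 higher and 1 lower of 9 in TSC1 KO islets, near the shares of all genes (8.63% and 10.0%). In β-cells 1 of 8 was higher and 1 lower (3.38% and 3.60% of all genes). Ern1, the ER stress sensor that splices the Xbp1 transcript, averaged 104 ± 16.8 CPM in Db islets, against 38.2 ± 8.02 CPM in controls (SD, n = 2 each; log2 fold change 1.45 with SE 0.21 and edgeR adjusted p = 3.36e-06). It averaged 647 ± 123 CPM in adult and 372 ± 103 CPM in neonatal cells (SD, n = 3 each; log2 fold change 0.80 with SE 0.19 and edgeR adjusted p = 0.0206). Atf6b, a relative of the stress factor ATF6, averaged 75.3 ± 11.6 CPM in adult and 142 ± 51.1 CPM in neonatal cells (SD, n = 3 each; log2 fold change -0.91 with SE 0.25 and edgeR adjusted p = 0.0384). Hspa5, which encodes the main ER chaperone BiP, averaged 380 ± 89.4 CPM in TSC1 KO islets, against 1240 ± 294 CPM in controls (SD, n = 2 each; log2 fold change -1.71 with SE 0.38 and edgeR adjusted p = 0.0334). It averaged 1120 ± 183 CPM in Db islets, against 648 ± 41.8 CPM in controls (SD, n = 2 each; log2 fold change 0.79 with SE 0.22 and edgeR adjusted p = 0.00455). Of the CREB3 relatives, Creb3l3 was higher in Db islets at very low levels, 3.31 ± 1.26 CPM against 0.161 ± 0.227 CPM in controls (SD, n = 2 each; edgeR adjusted p = 1.58e-05). Creb3l4 was higher in TSC1 KO islets, with 5.08 ± 3.23 CPM against 0.153 ± 0.00767 CPM in controls (SD, n = 2 each; edgeR adjusted p = 0.0214). Xbp1, given for its part in the elements searched above, had 137 and 139.8 CPM in TSC1 KO islets, against 238 and 243 CPM in controls (log2 fold change -0.79 with SE 0.23 and edgeR adjusted p = 0.0636). It had 146 and 127 CPM in Db islets, against 159 and 191 CPM in controls (log2 fold change -0.36 with SE 0.20 and edgeR adjusted p = 0.146), and so was not called in either.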

How the data were processed

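The authors deposited 3 tables of gene counts, whole numbers whose library totals differ, as in counts that were not normalized. Tools named in the submitters' processing notes are GSNAP, HTSeq 0.7.1, cutadapt 1.13 and DESeq2, with mm9 and NCBIM37 as builds, but no source used here gives the strand setting. Symbols, exon lengths and GC content came from a later reference (GRCm38), so no coordinates of the counted genes are given. Symbols matched 32620 of 37310 identifiers. Library sizes and tests leave out any row without a gene name. Gene rows held 24.52% to 44.27% of reads where such rows exist.

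Of the β-cell columns, 2 neonatal ones carry number 3 in their heading and none number 2. They are called 3a and 3b, and their group is sure. Values of a group are given in the order of the replicate numbers, for neonatal cells 1, 3a and 3b. Replicates differed by more than sampling noise (chi-square of 10.93 to 83.88 per degree of freedom), and intervals of shares are not given because replicates carry the error.

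Each comparison was fitted on its table with edgeR 4.0.16 (quasi-likelihood test, robust, two-sided) in R 4.3.3, after filterByExpr (minimum count 10, total 15) and TMM scaling, with Benjamini-Hochberg adjustment over all genes. A joint fit of the 8 islet libraries tested the difference of effects. Alternatives were DESeq2 1.42.0 size factors and test, limma-voom (limma 3.58.1), library size only, insulin and mitochondrial genes removed, no filter, each replicate left out, a replicate block, and, chosen after seeing the data, removal of the GC trend by lowess. Motifs were searched by exact match.

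All 58 members are counted by role. Values per library are given for those called, and for Sec61a1, Ssr4, Sec11c, Kdelr3, Tmed6, Copz2, Creb3l1 and Creb3l2 in every comparison, with up to 2 genes for the other pathway lists in a comparison. Xbp1, and Hspa5 in Db islets, were added after their values were seen. The members, lists and rules were chosen with earlier results of these data known. Protein sequences are not used here.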

Additional observations from a re-analysis of the deposited data

Results flagged for a closer look

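The effect of the TSC1 KO label on these genes differed from that of the Db label by a direct test. In the joint edgeR fit of the 8 islet libraries the difference, TSC1 KO effect minus Db effect, passed for 40 of the 58 members. For 13 of them the 2 effects were each called and had opposite directions, lower in TSC1 KO islets and higher in Db islets. Their log2 differences were -3.92 for Tmed3, -3.4 for Ssr4, -2.98 for Cope, -2.94 for Sec13, -2.80 for Sec61a1, -2.55 for Dad1, -2.28 for Ssr2, -2.20 for Sec11c, -2.03 for Kdelr2, -2.0 for Srp14, -1.93 for Ddost, -1.80 for Copz2 and -1.75 for Copg1. These 13 are 22.4% of the 58 members, where 3.28% of the genes tested in both comparisons were called in that way. Of the members lower in TSC1 KO islets 54.2% were higher in Db islets, close to the 48.3% of all tested members. All 13 were among the 28 members whose difference held under all 16 alternatives. The calls of the single effects were less stable. None of the 25 calls in TSC1 KO islets held under all 12 alternatives. The calls in Db islets of Dad1, Ssr2, Sec11c, Ddost, Copz2 and Copg1 were also lost under some of the 12. The pairs also differ in age and table and carry different unexplained name prefixes, and these cannot be told apart from the TSC1 KO and Db labels.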

How the results depend on the processing

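The number of members called moved by over 1.5 times under the settings given here and under the replicate block in TSC1 KO islets. In β-cells (5 called) it was 2 with library size only, 3 with the GC trend removed and 0 to 5 when 1 library was left out. In TSC1 KO islets (25 called) it was 15 under the block and 0 to 33 when 1 library was left out, and in Db islets (33 called) 21 to 34. The counts of all genes were 999 in β-cells, with 1588 by DESeq2's test and 405 to 1380 without 1 library, 2703 in TSC1 KO islets, with 0 to 4015 without 1 library, 6919 in Db islets, with 4419 to 6666, and 4988 for the difference of the islet effects, with 2910 to 5909. The lowest of these counts of all genes in islets came without a TSC1 KO library (either one) or without Db replicate 2. The count of members for the difference stayed between 31 and 43 without 1 library.

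With library size only the median of all genes was -0.19 in β-cells, with 321 higher and 872 lower, -0.25 in TSC1 KO islets, with 756 and 1961, 0.29 in Db islets, with 3983 and 1562, and -0.47 for the difference, with 868 and 3811. Members were then called 30 higher and 0 lower in Db islets (33 of 58 at an unadjusted p under 0.05, against 6751 of 14369 genes).

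Among the members called, or given in every comparison, 4 values turned direction: Creb3l1 in β-cells, with -0.62 to 0.51 when 1 library was left out, Creb3l2 in TSC1 KO islets, with -0.44 to 0.15, and with the GC trend removed Stt3a in Db islets (0.09) and Creb3l1 in the difference (0.19).

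Replicate numbers did not pair the islet samples (correlation of deviations -0.05 and -0.04). With a replicate block 1648 genes and 15 members were called in TSC1 KO islets, 10 members fewer (Sec61a1, Srp9, Srp14, Srp68, Ddost, Sec13, Sar1a, Copg1, Kdelr2 and Golgb1, with adjusted p of 0.0561 to 0.11), and 31 members in Db islets. No paired analysis was possible for the β-cells because the neonatal columns lack a number 2.

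Each islet comparison rests on 4 libraries. Where a group is left with 1 library, that library is assumed to vary like the others. Low members (Tmed6, Sec61g, Sec23a, Kdelr3) are limited by depth.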
